A study of Sus scrofa with 24 samples.

Results

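The transcripts described are those of 10 genes of the gp130 cytokine family in cultured pig preadipocytes, namely the ligands IL11, IL6, LIF and CLCF1, the receptors IL6ST (gp130), IL11RA, IL6R, LIFR and OSMR, and the feedback inhibitor SOCS3. They were taken by symbol from the deposited table of 25462 genes, and all 10 were present and were among the 16135 genes tested. The genes were selected on their FPKM in these 8 groups, which were already known, so their levels are given as a description and no p-value of a single one of them is given. The cells came from 2 fat depots of six-day-old Yorkshire piglets, subcutaneous fat of the back (BF) and fat within the longissimus dorsi, a muscle of the back (intramuscular, IMF). Each depot was sampled before adipogenic induction (day 0) and on days 2, 4 and 8, which gave 8 groups of 3 libraries, called here BF-0d to BF-8d and IMF-0d to IMF-8d. For the first 2 days the medium held the phosphodiesterase inhibitor IBMX, dexamethasone (a glucocorticoid) and insulin. Up to day 4 it held insulin without the other agents, and after day 4 it was growth medium. All of these media held serum. Day therefore cannot be told apart from medium. The methods name 3 piglets, but the labels do not tie a library to an animal, so the p-values given measure the spread between libraries, which may be technical.

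Cytokines of this family signal through IL6ST, a receptor chain expressed in most cell types. Each ligand first binds its own receptor (IL11RA or IL6R, which bring IL6ST chains together) or engages IL6ST with LIFR or OSMR, and the JAK kinases on the receptor tails then phosphorylate STAT3. STAT3 switches on SOCS3, which binds IL6ST and the kinases and stops the signal. In fat tissue IL6 and LIF are released by stromal cells and adipocytes, and IL11 was found early as a factor of stromal cells that blocks adipogenesis in culture.

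FPKM divides the fragments of a gene by its transcript length and by the mapped fragments of the library, so that its values allow levels of different genes to be set side by side per length. Library totals ran from 307967 to 385768 FPKM, and FPKM do not give the read numbers of a gene. Correlations across genes between replicates were lowest in BF-2d (0.962 to 0.976), BF-4d (0.965 to 0.991) and BF-8d (0.969 to 0.988). BF-4d replicate 3 correlated less with its fellow replicates (0.965 and 0.97) than these did with each other (0.991). All 6 stromal markers in the table, such as COL1A1 and PDGFRA, were high, with a sum of 2851 to 13130 FPKM per library. The labels call the cells adipocytes, and 5 of 8 adipocyte markers reached 1 FPKM in at least 1 library. CEBPA lay between 1.29 and 10.03 FPKM, PPARG reached 5.75, FABP4 6.0 and CIDEC 1.15, and the lipoprotein lipase LPL ranged from 0.822 to 611. The other 3 were at or near 0 in every library, where ADIPOQ reached at most 0.23 FPKM, PLIN1 0.0773 and LEP 0.0313. The sum of the 8 listed adipocyte markers was 2.79 to 3.67 FPKM in IMF-0d, 11.4 to 14.3 in IMF-4d, 97.2 to 143 in IMF-8d and 281 to 622 in BF-8d. Of 6 myogenic markers 0 reached 1 FPKM. Of 7 immune markers 3 reached 1 FPKM and their sum was 53.2 to 134 FPKM, most of it from the B cell gene CD79A, which lay between 47.9 and 129.9 FPKM. CD68 lay between 0.609 and 2.47 FPKM and CD14, a monocyte gene that fibroblasts also carry, between 2.10 and 17.1, with its highest value in BF-4d replicate 3. The pan-leukocyte gene PTPRC reached at most 0.00835 FPKM, CSF1R at most 0.0581, and CD3E and LYZ were listed at 0 throughout. The part of these genes in the results was not tested. In such bulk cultures fewer cells of a type and less RNA per cell cannot be told apart.

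The promoters of IL11 and SOCS3 are shown because IL11 spanned the widest range of all 10 genes and SOCS3 is the feedback gene of the pathway. Each window runs from 250 bases before to 50 bases after the RefSeq gene start on Sscrofa11.1, the build the authors aligned to, and is written 5′ to 3′ on the gene's strand. IL11 lies on chromosome 6 (59540482 to 59544909, minus strand) and its window is chr6:59544860-59545159. SOCS3 lies on chromosome 12 (3643832 to 3647015, plus strand) and its window is chr12:3643582-3643881. Capitals mark an AP-1 motif (TGANTCA) in IL11 and a STAT motif (TTCNNNGAA) in SOCS3.
IL11: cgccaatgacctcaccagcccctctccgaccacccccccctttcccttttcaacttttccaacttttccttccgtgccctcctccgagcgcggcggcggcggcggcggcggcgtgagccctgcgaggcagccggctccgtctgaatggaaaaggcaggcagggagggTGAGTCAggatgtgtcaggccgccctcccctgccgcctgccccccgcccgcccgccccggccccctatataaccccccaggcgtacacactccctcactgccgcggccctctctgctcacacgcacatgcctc
SOCS3: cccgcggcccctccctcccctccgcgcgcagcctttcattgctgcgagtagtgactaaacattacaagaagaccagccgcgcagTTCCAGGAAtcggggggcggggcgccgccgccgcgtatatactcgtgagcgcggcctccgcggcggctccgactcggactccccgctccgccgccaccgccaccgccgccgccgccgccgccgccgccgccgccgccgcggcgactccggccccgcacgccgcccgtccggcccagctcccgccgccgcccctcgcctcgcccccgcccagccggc
The AP-1 match of IL11, TGAGTCA, begins 83 bases before the gene start, and the STAT match of SOCS3, TTCCAGGAA, begins 166 bases before it. Both strands were searched. Among 19559 promoters of this length, 7.12% held the STAT motif, 6.07% the AP-1 motif and 2.25% the cAMP response element (TGACGTCA). Of the 9 genes with a RefSeq window, 1 held the STAT motif, 1 the AP-1 motif and 0 the cAMP response element, and LIFR was not matched by symbol. A match describes letters in the window and is not evidence of binding.

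IL11 was near 1 to 2 FPKM in both depots on day 0 and was between 684 and 3749 FPKM in BF cells from day 2 and in IMF cells on day 8, with the exception of BF-2d replicate 3. In BF cells its FPKM in replicates 1, 2 and 3 was 1.53, 1.5 and 2.16 on day 0, 684, 981 and 48.9 on day 2, 812, 1422 and 3749 on day 4, and 1367, 1235 and 1340 on day 8. In IMF cells it was 1.59, 1.73 and 1.29 on day 0, 4.94, 16.9 and 2.49 on day 2, 4.42, 3.28 and 4.18 on day 4, and 842, 735 and 906 on day 8. BF-2d replicate 3 was far below the other BF-2d libraries, yet above every IMF library of days 0, 2 and 4, and BF-4d replicate 3 held the highest value of all. The group mean was 330 times higher in BF-2d (571 ± 476, SD, n = 3) than in BF-0d (1.73 ± 0.37), and 209 times higher in IMF-8d (828 ± 86.5) than in IMF-4d (3.96 ± 0.60). On the log2(FPKM + 1) scale used for all differences, which understates changes of low values, these differences were 6.89 ± 0.77 (SE) and 7.39 ± 0.77. Without BF-2d replicate 3 the first was 8.24 ± 0.52, and without BF-2d replicate 2 it was 6.09 ± 0.78.

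**Figure D1:**
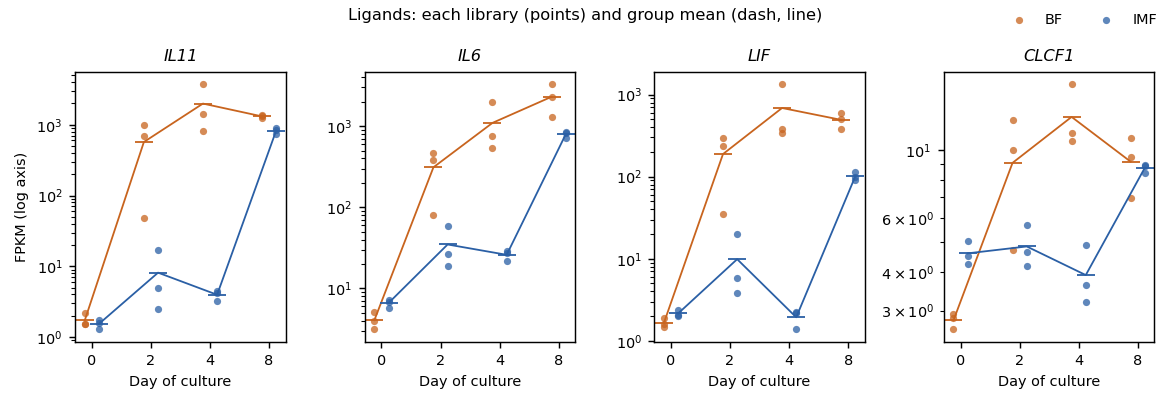
FPKM of the 4 ligands (log axis) by day of culture, with a point for each of 24 libraries and a dash for the mean of each group of 3, in BF (orange) and IMF (blue) cells. IL11, IL6 and LIF are high in BF cells from day 2 and in IMF cells on day 8, and the lowest BF-2d point of each ligand is replicate 3.

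Between depots, IL11 libraries overlapped on day 0 and did not overlap on days 2, 4 and 8. The IMF minus BF difference was -0.10 ± 0.77 on day 0, -5.49 ± 0.77 on day 2, -8.37 ± 0.77 on day 4 and -0.67 ± 0.77 on day 8. Here and below, an SE rests on a spread per gene that all 8 groups share, not on that of the groups compared. Leaving out BF-4d replicate 3 gave -7.77 ± 0.82 on day 4. On day 2 it was -6.83 ± 0.52 without BF-2d replicate 3, -4.68 ± 0.78 without BF-2d replicate 2 and -6.15 ± 0.81 without IMF-2d replicate 2. The BF-4d mean (1994 ± 1550) was thus 504 times the IMF-4d mean, whereas the BF-8d mean (1314 ± 69.6) was 1.59 times that of IMF-8d. In ascending order of means the groups ran IMF-0d, BF-0d, IMF-4d, IMF-2d, BF-2d, IMF-8d, BF-8d and BF-4d. Libraries of neighbours in this order overlapped between IMF-0d and BF-0d, IMF-4d and IMF-2d, BF-2d and IMF-8d, and BF-8d and BF-4d.

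IL6, the founding member of the family and an inflammatory cytokine of fat tissue, had a like course at levels that were a few FPKM higher on day 0. Its BF values were 3.91, 3.13 and 5.13 FPKM on day 0, 381, 472 and 79.3 on day 2, 533, 747 and 2011 on day 4, and 1313, 3289 and 2300 on day 8. Its IMF values were 7.29, 5.73 and 6.79 on day 0, 26.3, 58.9 and 19.1 on day 2, 29.0, 21.8 and 27.0 on day 4, and 842, 819 and 717 on day 8. In each depot the day 0 libraries lay below all libraries of the later days, and the highest BF group was day 8, not day 4 as for IL11, although BF-4d and BF-8d overlapped. The log2 difference was 5.61 ± 0.54 from BF-0d to BF-2d and 4.89 ± 0.54 from IMF-4d to IMF-8d. It was 2.08 ± 0.54 from IMF-0d to IMF-2d, which did not meet the call rule given further on although those libraries did not overlap. IMF minus BF was 0.60 ± 0.54 on day 0, -2.93 ± 0.54 on day 2, -5.12 ± 0.54 on day 4 and -1.44 ± 0.54 on day 8, with no overlap on any day. Without BF-2d replicate 3 the differences were 6.41 ± 0.46 from BF-0d to BF-2d and -3.73 ± 0.46 on day 2.

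LIF, leukemia inhibitory factor, signals through a pair of LIFR and IL6ST. Its BF values were 1.47, 1.58 and 1.92 FPKM on day 0, 235, 295 and 34.98 on day 2, 337, 384 and 1338 on day 4, and 380, 592 and 505 on day 8. Its IMF values were 2.39, 2.09 and 1.99 on day 0, 5.77, 20.04 and 3.83 on day 2, 2.26, 1.38 and 2.16 on day 4, and 90.8, 113 and 97.9 on day 8. The depots moved apart from day 2 to day 4, when every BF-4d library was above every BF-2d library and every IMF-4d library was below every IMF-2d library. The log2 difference was 5.68 ± 0.62 from BF-0d to BF-2d and 5.12 ± 0.62 from IMF-4d to IMF-8d. IMF minus BF was 0.25 ± 0.62 on day 0, -3.94 ± 0.62 on day 2, -7.58 ± 0.62 on day 4 and -2.26 ± 0.62 on day 8. The depots did not overlap on any of these days, and on day 8 the BF mean (492 ± 107) was 4.88 times the IMF mean (101 ± 11.6). Without BF-2d replicate 3 the differences were 6.64 ± 0.497 from BF-0d to BF-2d and -4.905 ± 0.497 on day 2, the latter was -4.57 ± 0.63 without IMF-2d replicate 2, and that of day 4 was -6.95 ± 0.63 without BF-4d replicate 3. The day 8 difference was not called without any 1 of the BF-8d or IMF-8d libraries, BF-0d replicate 2 or IMF-0d replicate 1 (-2.43 to -2.11).

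CLCF1, cardiotrophin-like cytokine factor, which binds the CNTF receptor, varied less than the other ligands. In BF cells from day 2 and in IMF-8d its mean was below those of IL11, IL6 and LIF, whereas on day 0 it was above IL11 and LIF in both depots and in IMF-4d it was close to IL11 (3.91 ± 0.89 against 3.96 ± 0.6). Its BF values were 2.61, 2.83 and 2.93 FPKM on day 0, 9.96, 12.6 and 4.70 on day 2, 11.3, 10.7 and 16.4 on day 4, and 6.99, 11.0 and 9.50 on day 8. Its IMF values were 4.25, 5.03 and 4.53 on day 0, 4.66, 5.69 and 4.197 on day 2, 4.91, 3.64 and 3.19 on day 4, and 8.95, 8.44 and 8.85 on day 8. It was lowest in BF-0d, below every other group, and the depots overlapped on days 2 and 8 but not on days 0 and 4. The log2 difference was 1.32 ± 0.23 from BF-0d to BF-2d, 1.003 ± 0.23 from IMF-4d to IMF-8d and -1.48 ± 0.23 between IMF and BF on day 4. The second of these lies just inside the limit of 1 that a call requires, and it was 0.896 to 0.995 on leaving out IMF-4d replicate 2 or 3 or IMF-8d replicate 1 or 3.

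Added up, IL11, IL6 and LIF took 0.00198 to 0.0028% of a library's FPKM in BF-0d and 0.00281 to 0.00331% in IMF-0d. The share was 0.0463 to 0.453% in BF-2d, 0.495 to 2.05% in BF-4d and 0.966 to 1.51% in BF-8d. In IMF cells it was 0.00762 to 0.0282% on day 2, 0.00764 to 0.0102% on day 4 and 0.456 to 0.475% on day 8. IL11 ranked between 9348 and 10235 among the genes of a day 0 library, and it was the gene with rank 7 in BF-4d replicate 3. On day 8 it ranked 26 to 36 in BF and 62 to 68 in IMF libraries. IL6 held rank 6 in BF-8d replicate 2, its highest place. The sum of the adipocyte markers, carried mostly by LPL, was also higher in BF cells from day 2 and in IMF cells on day 8, and the sum of the 6 stromal markers was lower there. The stromal sum was 11970 to 13130 FPKM in BF-0d, 5389 to 11150 in BF-2d, 2851 to 4191 in BF-4d and 3308 to 3667 in BF-8d, and in IMF cells it was 12090 to 12560 on day 0, 10430 to 11640 on day 2, 10070 to 10330 on day 4 and 5809 to 6659 on day 8. Its members did not move together, since mean COL1A1 was 5753 ± 368 in BF-0d and 676 ± 253 in BF-4d while mean PDGFRA was 77 ± 11.9 and 342 ± 21.2. The immune sum was 53.2 to 77.5 FPKM in BF-0d, 79.6 to 134 in BF-2d, 81.9 to 105 in BF-4d and 60.85 to 66.93 in BF-8d. It was 59.3 to 72.8 in IMF-4d and 65.6 to 84.1 in IMF-8d, where CD14 was 2.66 to 3.72 and 6.65 to 8.88 FPKM. The endothelial sum, nearly all of it PECAM1, was 4.45 to 5.18 FPKM in BF-0d, 1.17 to 1.98 in BF-2d, 3.53 to 3.62 in IMF-4d and 3.94 to 4.81 in IMF-8d, and the endothelial genes CDH5, TEK and KDR stayed at or below 0.101 FPKM. The part of these marker lists in the ligand values was not tested.

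IL6ST, the signalling chain that all of these ligands share, was present in every library at 26.2 FPKM or more and stood higher in BF-4d and BF-8d than anywhere else. Its BF values were 53.0, 55 and 51.7 FPKM on day 0, 106, 46.5 and 57.2 on day 2, 248, 239 and 202 on day 4, and 217, 332 and 298 on day 8. Its IMF values were 42.6, 44.5 and 26.2 on day 0, 62.7, 56.6 and 33.4 on day 2, 61.1, 59.4 and 63.8 on day 4, and 60.8, 66.3 and 49.2 on day 8. The 6 libraries of BF-4d and BF-8d lay at 202 FPKM or above, and all other libraries at or below 106. From BF-2d to BF-4d the log2 difference was 1.79 ± 0.26, an interval after the largest difference of the ligands in BF cells. From IMF-4d to IMF-8d, where the ligands differed most in IMF cells, IL6ST differed by -0.07 ± 0.26. IMF minus BF was -1.88 ± 0.26 on day 4 and -2.23 ± 0.26 on day 8, with no overlap. On day 8 the BF mean (282 ± 59.1) was 4.80 times the IMF mean (58.8 ± 8.73), while the depots overlapped on day 2.

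**Figure D2:**
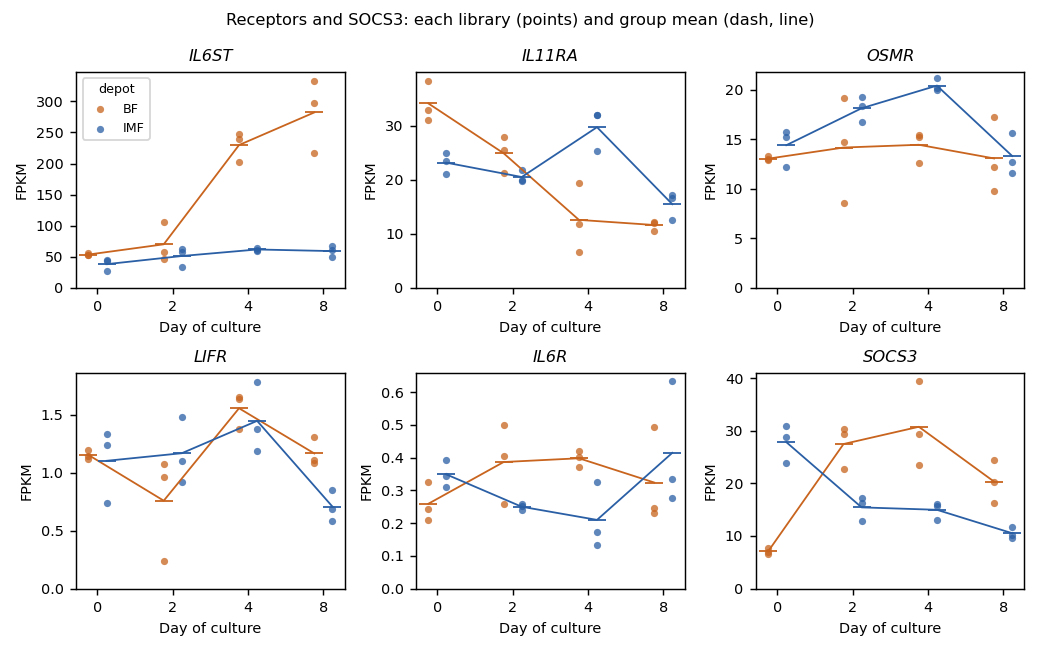
FPKM (linear axis from 0) of the 5 receptors and SOCS3 by day of culture, with a point for each library and a dash for the mean of each group of 3, in BF (orange) and IMF (blue) cells. IL6ST is at or above 202 FPKM in BF-4d and BF-8d and at or below 106 elsewhere, IL11RA is lowest in BF-4d and BF-8d, and SOCS3 is low in BF-0d and high in IMF-0d.

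IL11RA, the receptor specific for IL11, went the other way in BF cells. Its BF values were 31.1, 32.9 and 38.4 FPKM on day 0, 21.2, 25.5 and 28.0 on day 2, 19.4, 11.7 and 6.53 on day 4, and 12.2, 10.6 and 12.04 on day 8. Its IMF values were 21.1, 23.5 and 24.8 on day 0, 19.9, 21.7 and 19.8 on day 2, 32.0, 31.9 and 25.3 on day 4, and 16.6, 12.6 and 17.1 on day 8. In BF-4d the library with the most IL11 (replicate 3) had the least IL11RA and the library with the least IL11 (replicate 1) had the most. In BF-8d and in IMF-8d it was the reverse, as the library with the most IL11 also had the most IL11RA and that with the least had the least. The log2 difference was -1.04 ± 0.23 from BF-2d to BF-4d, and it was -0.68 ± 0.18 without BF-4d replicate 3 and -0.96 ± 0.25 without BF-2d replicate 3, neither of which meets the call rule. IMF minus BF was 1.29 ± 0.23 on day 4, and 0.92 ± 0.18 without BF-4d replicate 3, again short of a call. From IMF-4d to IMF-8d IL11RA differed by -0.91 ± 0.23 with no overlap. The ratio of IL11 to IL11RA FPKM was 0.0457 to 0.0563 in BF-0d, 111 to 117 in BF-8d and 50.6 to 58.5 in IMF-8d, and in BF-4d it ran from 42 to 574.

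The other 3 receptors met the call rule in 0 of 10 pairwise comparisons. OSMR, which pairs with IL6ST for oncostatin M, lay between 8.50 and 21.2 FPKM in all libraries. Its IMF-2d mean (18.1 ± 1.3) and IMF-4d mean (20.4 ± 0.66) were the highest, and the libraries of IMF-4d did not overlap those of any other group. LIFR lay between 0.239 and 1.78 FPKM, with its lowest value in BF-2d replicate 2. Its means ran from 0.71 ± 0.13 in IMF-8d to 1.55 ± 0.16 in BF-4d, and each pair of neighbours in the order of means overlapped. IL6R, which gives a cell its own response to IL6, was listed at only 0.133 to 0.634 FPKM, and again all neighbours overlapped. The shared chain IL6ST was 66.8 to 1205 times higher per length than IL6R across the libraries, with a median of 219, and the highest ratios were in BF-8d (674 to 1205).

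SOCS3, which STAT3 induces and which blocks IL6ST signalling, differed between the depots before induction. Its BF values were 6.87, 6.63 and 7.77 FPKM on day 0, 29.4, 30.3 and 22.7 on day 2, 29.4, 23.5 and 39.4 on day 4, and 16.3, 24.5 and 20.2 on day 8. Its IMF values were 28.8, 23.9 and 30.9 on day 0, 16.3, 17.2 and 12.8 on day 2, 15.8, 16.2 and 12.98 on day 4, and 10.1, 9.69 and 11.7 on day 8. From day 0 to day 2 the 3 BF libraries of day 2 lay above all those of day 0, and the 3 IMF libraries of day 2 lay below all those of day 0. The log2 differences over this interval were 1.81 ± 0.18 in BF cells and -0.81 ± 0.18 in IMF cells. IMF minus BF was 1.83 ± 0.18 on day 0, then -0.79 ± 0.18, -0.97 ± 0.18 and -0.87 ± 0.18 on days 2, 4 and 8, with no overlap on any day. In IMF-8d, where IL11, IL6 and LIF were at their highest IMF levels, SOCS3 was at its lowest IMF level (10.5 ± 1.07 FPKM).

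A gene was called when limma, fitted to all 24 libraries, gave a Benjamini-Hochberg adjusted p under 0.01 over all tested genes and an absolute log2 difference of at least 1. From BF-0d to BF-2d, 5 of the 10 genes were called, all higher on day 2 (IL11, IL6, LIF, CLCF1 and SOCS3), against 6.59% of all tested genes. IL6ST (higher) and IL11RA (lower) were the 2 called from BF-2d to BF-4d, against 3.35%. The 4 ligands were called from IMF-4d to IMF-8d, all higher on day 8, against 7.25%. The counts were 0 from BF-4d to BF-8d (2.93% of all genes), 0 from IMF-0d to IMF-2d (0.787%) and 0 from IMF-2d to IMF-4d (0.0372%), where limma gave an unadjusted p under 0.05 for 2, 3 and 2 of the 10 genes (32.2%, 21.2% and 8.34% of all tested genes). Between depots, 1 was called on day 0 (SOCS3, higher in IMF, 2.58% of all genes) and 3 on day 2 (IL11, IL6 and LIF, all lower in IMF, 4.74%). On day 4 there were 6, with IL11RA higher and the 4 ligands and IL6ST lower in IMF (11.3%), and on day 8 there were 2, LIF and IL6ST, both lower in IMF (6.96%). The median log2 difference of the 10 genes was 0.81 from BF-0d to BF-2d and -1.23 between IMF and BF on day 4, where the medians of all tested genes were -0.04 and 0.07. In the other pairwise comparisons the median of the 10 genes ran from -0.55 to 0.55. From IMF-4d to IMF-8d it was 0.07, against -0.07 for all tested genes. Libraries did not overlap between the groups for 7 of the 10 genes from BF-0d to BF-2d (40.1% of all tested genes), 5 from BF-2d to BF-4d (28.3%) and 1 from BF-4d to BF-8d (32.2%). In IMF cells this held for 6 from day 0 to 2 (35.3%), 3 from day 2 to 4 (24.2%) and 8 from day 4 to 8 (52.9%). Between depots it held for 6 on day 0 (38.1%), 4 on day 2 (36.6%), 9 on day 4 (54.6%) and 7 on day 8 (48.9%). With only the compared libraries fitted, 3 of the 5 calls from BF-0d to BF-2d, 0 of the 2 from BF-2d to BF-4d and 4 of the 4 from IMF-4d to IMF-8d remained. Between depots 1 of 1 remained on day 0, 0 of 3 on day 2, 5 of 6 on day 4 and 2 of 2 on day 8. In these fits IL11 was called from IMF-4d to IMF-8d and on day 4, but not from BF-0d to BF-2d or on day 2. Because the genes were chosen with these values in view, nothing is read from these counts and medians, and successive comparisons share libraries.

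**Figure D3:**
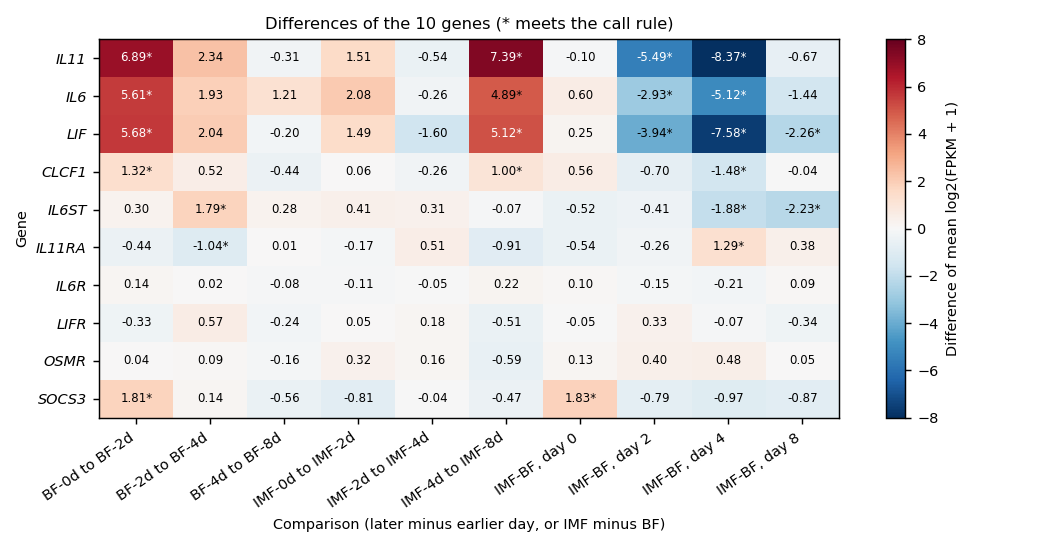
Differences of mean log2(FPKM + 1) for the 10 genes (rows) in the 10 pairwise comparisons (columns), later minus earlier day or IMF minus BF, with red for higher and blue for lower and an asterisk where the call rule is met. IL11, IL6 and LIF share the deepest colours from BF-0d to BF-2d, from IMF-4d to IMF-8d and between depots on days 2 and 4, whereas the rows of IL6R, LIFR and OSMR are pale throughout.

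The change over an interval in IMF cells minus that in BF cells was also fitted. From day 0 to day 2 it met the call rule for IL11 (-5.38 ± 1.08), IL6 (-3.53 ± 0.77), LIF (-4.19 ± 0.88) and SOCS3 (-2.62 ± 0.25), against 2.45% of all tested genes. From day 2 to day 4 it did so for IL11RA alone (1.55 ± 0.32, 3.06% of all genes), and from day 4 to day 8 for IL11 (7.70 ± 1.08), IL6 (3.68 ± 0.77), LIF (5.33 ± 0.88) and CLCF1 (1.44 ± 0.32, 6.39% of all genes). CLCF1 was not called over the first interval (-1.27 ± 0.32). Without BF-2d replicate 3 the first interval gave -6.73 for IL11, -4.33 for IL6 and -5.15 for LIF, without IMF-2d replicate 2 it gave -6.04 for IL11 and -4.82 for LIF, and without BF-4d replicate 3 the last gave 7.10 for IL11 and 4.695 for LIF. The calls of the first interval were lost on leaving out any 1 of 8 libraries for IL11 (-5.46 to -4.58), 10 for IL6 (-3.68 to -3.05) and 9 for LIF (-4.26 to -3.63), all of them libraries of days 0 and 2, and with only the compared groups fitted SOCS3 alone remained of the 4. The IL11RA call was lost without any 1 of 5 libraries of days 2 and 4 (1.46 to 1.53) and with only the compared groups fitted, and the CLCF1 call of the last interval without any 1 of 4 libraries (1.28 to 1.43). These values too describe the selection.

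To set the 10 genes in their pathway, 5 lists were written by hand, with 54 genes of which 45 were in the table and 43 were tested. The lists were written with earlier results of these data known, so their shares of called genes are a description. The same holds for the p-values of the named list genes, which were picked for their largest called differences. In at least 1 of the 10 pairwise comparisons, 20 of the 43 were called (46.5%, against 20.2% of all tested genes) and 23 were not. From BF-0d to BF-2d 5 rose and 2 fell (16.3% called, against 6.59% of all genes), and from IMF-4d to IMF-8d 5 rose and 3 fell (18.6%, against 7.25%). From BF-2d to BF-4d 2 rose (4.65%, against 3.35%), and from BF-4d to BF-8d 3 rose and 1 fell (9.3%, against 2.93%). In IMF cells 0 were called over the first interval and 0 over the second (0.787% and 0.0372% of all genes), with 8 and 6 at an unadjusted p under 0.05 in limma (21.2% and 8.34% of all genes). Between depots, 2 were called on day 0 (4.65%, against 2.58% of all genes), 6 on day 2 (14%, against 4.74%), 9 on day 4 (20.9%, against 11.3%) and 5 on day 8 (11.6%, against 6.96%). Of these, 1 was higher and 8 lower in IMF on day 4, and 1 higher and 4 lower on day 8. The median log2 difference of the 43 genes was -0.05 from BF-0d to BF-2d and -0.01 from IMF-4d to IMF-8d, close to the medians of all tested genes (-0.04 and -0.07).

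Of the other gp130 ligands and receptors, 7 were tested and 2 were called at least once (28.6%, against 20.2% of all tested genes), IL27RA and CNTFR. The median log2 difference of the 7 genes was -0.07 from BF-0d to BF-2d and -0.03 from IMF-4d to IMF-8d. IL27RA, which pairs with IL6ST as the receptor of interleukin 27, was called in 4 comparisons. It had 148, 180 and 57.5 FPKM in BF-2d against 22.5 to 23.7 in BF-0d (2.28 ± 0.25, limma adjusted p = 1.43e-06), and 132 to 153 in IMF-8d against 28.0 to 31.5 in IMF-4d (2.24 ± 0.25, limma adjusted p = 1.17e-06). It was lower in IMF on day 2 (-2.11 ± 0.25, limma adjusted p = 6.25e-06) and day 4 (-2.75 ± 0.25, limma adjusted p = 5.18e-08). Its ligand subunits IL27 and EBI3 were listed at 0 in 21 and 10 of 24 libraries, and reached at most 1.77 and 0.326 FPKM. CNTFR, the receptor of CNTF and CLCF1, reached at most 2.93 FPKM and was lower in IMF on day 0 (-1.11 ± 0.18, limma adjusted p = 0.00019), though without BF-0d replicate 3 the difference was -0.996 and short of 1. CTF1 (cardiotrophin) reached at most 0.6 FPKM. ADAM10 and ADAM17, the proteases that shed membrane cytokine receptors, lay between 6.93 and 15.3 and between 13.6 and 35.3 FPKM and were not called.

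Among the 8 signal transducers 2 were called at least once (25%, against 20.2% of all tested genes), and STAT3 and its kinases JAK1 and TYK2 were not. The median over the list was -0.31 from BF-0d to BF-2d and -0.12 from IMF-4d to IMF-8d. STAT3 lay between 35.4 and 70.3 FPKM, JAK1 between 41.9 and 69.3, TYK2 between 7.65 and 21.2 and PTPN11 (SHP2) between 19.6 and 46.5 over all libraries. GAB1, a docking protein that links IL6ST through PTPN11 to the ERK kinases, fell from 11.06 to 12.7 FPKM in BF-0d to 1.38 to 5.92 in BF-2d (-1.77 ± 0.24, limma adjusted p = 1.44e-05). In IMF cells it fell from 11.0 to 11.4 on day 4 to 1.85 to 2.65 on day 8 (-1.94 ± 0.24, limma adjusted p = 3.55e-06). GAB1 was higher in IMF on day 2 (1.39 ± 0.24, limma adjusted p = 0.000312) and day 4 (2.12 ± 0.24, limma adjusted p = 6.89e-07), so it moved opposite to the ligands in the same intervals.

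JAK2, a kinase bound to IL6ST, rose from 3.31 to 4.13 FPKM in BF-4d to 6.49, 18 and 8.05 in BF-8d (1.18 ± 0.24, limma adjusted p = 0.00231), with its highest value in BF-8d replicate 2. It was lower in IMF than in BF on day 8 (-1.08 ± 0.24, limma adjusted p = 0.00175). Without BF-8d replicate 2 these differences were 0.77 ± 0.19 and -0.68 ± 0.19, neither of them a call. The first was also lost without BF-4d replicate 1 (1.096 ± 0.28) and the second without IMF-8d replicate 3 (-0.97 ± 0.28).

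The 11 negative regulators other than SOCS3 gave 2 genes called at least once (18.2%, against 20.2% of all tested genes), each in 1 comparison, with list medians of -0.08 from BF-0d to BF-2d and -0.01 from IMF-4d to IMF-8d. SOCS5, a less studied member of the SOCS family, fell from 16.3 to 19.0 FPKM in IMF-4d to 6.73 to 8.55 in IMF-8d (-1.12 ± 0.15, limma adjusted p = 1.01e-05). SOCS6 was lower in IMF on day 4 (-1.003 ± 0.17, limma adjusted p = 6.88e-05), at 3.09 to 3.16 FPKM against 7.02 to 7.53, and just short of 1 without BF-4d or IMF-4d replicate 2 (-0.98 and -0.997). SOCS1, another inhibitor of the JAK kinases, reached at most 2.01 FPKM and was not called, nor was CISH at 0.72 to 2.58 FPKM.

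Of the 10 tested STAT3 target genes 8 were called at least once (80%, against 20.2% of all tested genes), and they did not move in 1 direction. From BF-0d to BF-2d 3 rose and 1 fell (6.59% of all genes were called), with a median of 0.37 over the list (0.04 from IMF-4d to IMF-8d). CEBPB, a transcription factor of early adipogenesis, rose from 10.3 to 15.3 FPKM in BF-0d to 40.1, 51.2 and 27.8 in BF-2d (1.53 ± 0.25, limma adjusted p = 9.82e-05). In IMF cells it rose from 12.6 to 14.6 FPKM on day 4 to 45.4, 26.0 and 37.0 on day 8 (1.302 ± 0.25, limma adjusted p = 0.000393), and it was lower in IMF on day 2 (-1.63 ± 0.25, limma adjusted p = 9.17e-05) and day 4 (-1.42 ± 0.25, limma adjusted p = 0.000109). TIMP1, a secreted inhibitor of matrix metalloproteinases, rose from IMF-4d (94.5 to 118 FPKM) to IMF-8d (366 to 474, 1.91 ± 0.31, limma adjusted p = 9.18e-05). TIMP1 also rose from BF-4d to BF-8d (1.38 ± 0.31, limma adjusted p = 0.00424), and it was lower in IMF on day 4 (-1.31 ± 0.31, limma adjusted p = 0.00193), the latter not called without BF-4d replicate 3 (-0.81 ± 0.24) or IMF-4d replicate 3 (-1.21 ± 0.35).

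IRF1, a transcription factor that interferons also induce, rose from 8.93, 8.12 and 34.4 FPKM in BF-4d to 25.1, 149 and 64.6 in BF-8d (2.11 ± 0.47, limma adjusted p = 0.00422). Like JAK2, IRF1 and TIMP1 were not called over this interval without BF-8d replicate 2 (1.49 ± 0.43 and 1.20 ± 0.35, limma adjusted p = 0.0298 and 0.0275), nor without BF-4d replicate 1 (1.82 ± 0.53 and 0.96 ± 0.29) or replicate 2 (1.76 ± 0.51 and 1.29 ± 0.35), and IRF1 also not without BF-8d replicate 3 (2.09 ± 0.54). The IRF1 difference was 2.74 ± 0.43 without BF-4d replicate 3 and 2.75 ± 0.43 without BF-8d replicate 1. CCND1, cyclin D1 of the cell cycle, was higher in IMF on day 0 (59.2 to 64.2 FPKM against 17.4 to 21.5, 1.61 ± 0.27, limma adjusted p = 0.000292) and on day 2 (1.08 ± 0.27, limma adjusted p = 0.0067), where it was not called without BF-2d replicate 1 or 2 or IMF-2d replicate 1 or 3 (0.893 to 1.17). That call was kept in 2 of 6 other ways of processing, and lost among others with no filter, with median ratio scaling and with only the compared groups fitted.

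**Figure D4:**
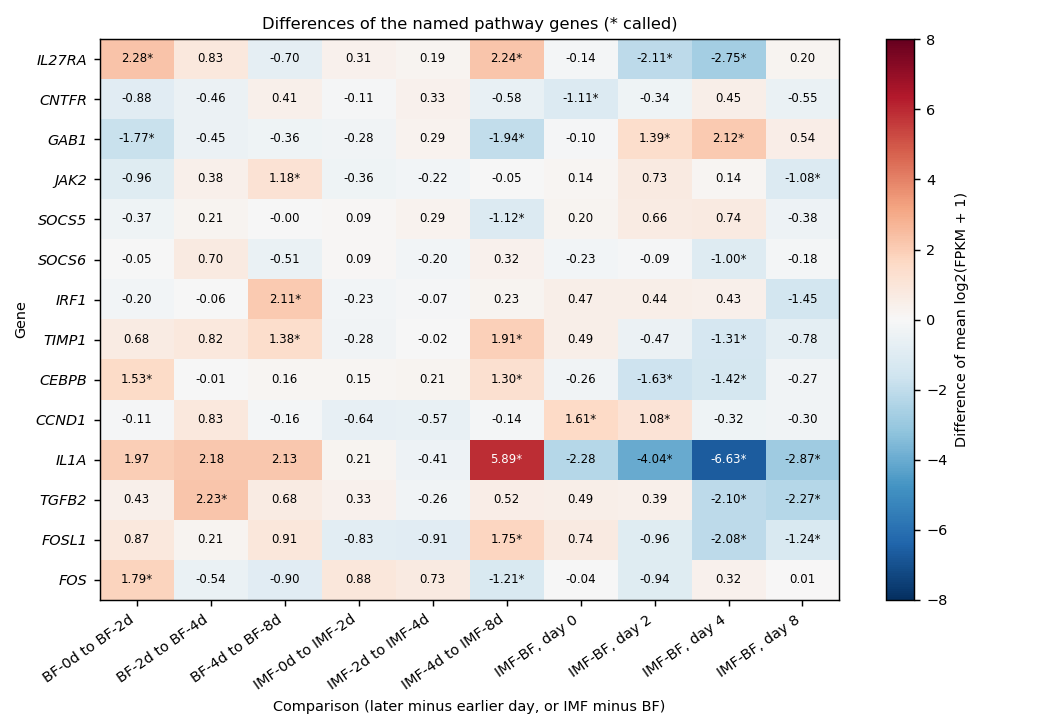
Differences of mean log2(FPKM + 1) for the 14 named genes of the 5 lists (rows) in the 10 pairwise comparisons (columns), later minus earlier day or IMF minus BF, with an asterisk where a gene is called. IL27RA and CEBPB carry the same signs as the ligands in 4 comparisons, GAB1 carries the opposite signs, and IL1A has the deepest colours.

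The last list held 7 tested genes whose products are known to raise IL11 or IL6 transcription in fibroblasts, and 6 were called at least once (85.7%, against 20.2% of all tested genes), with list medians of 0.43 from BF-0d to BF-2d and 0.52 from IMF-4d to IMF-8d. IL1A, an interleukin 1 cytokine, had 5.47 to 6.68 FPKM in BF-0d, 38.4, 47.2 and 9.36 in BF-2d, 38.7, 67.6 and 677 in BF-4d, and 441, 637 and 545 in BF-8d. In IMF cells it lay between 0.111 and 0.839 FPKM in all 9 libraries of days 0, 2 and 4, and at 79.6, 75.9 and 62.5 on day 8 (IMF-4d to IMF-8d 5.89 ± 0.67, limma adjusted p = 2.07e-06). It was lower in IMF on day 2 (-4.04 ± 0.67, limma adjusted p = 0.000282), day 4 (-6.63 ± 0.67, limma adjusted p = 2.83e-07) and day 8 (-2.87 ± 0.67, limma adjusted p = 0.00244), the last not called without BF-8d replicate 2 or IMF-8d replicate 3 (limma adjusted p = 0.0107 and 0.0117). Without BF-2d replicate 3 the day 2 difference was -4.73 ± 0.69, and that of day 4 was -5.396 ± 0.4 without BF-4d replicate 3 and -7.44 ± 0.64 without BF-4d replicate 1. The same BF-2d library was lowest and the same BF-4d library highest as for IL11, IL6 and LIF. Among the BF-2d libraries, replicate 3 also lay nearest to BF-0d for IL27RA, CNTFR, GAB1 and CEBPB, though not for STAT3, so its place is not particular to these cytokines.

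TGFB2, a transforming growth factor, rose from 3.90 to 13.6 FPKM in BF-2d to 19.6, 38.3 and 108 in BF-4d (2.23 ± 0.43, limma adjusted p = 0.00117). It was lower in IMF on day 4 (-2.10 ± 0.43, limma adjusted p = 0.000555) and day 8 (-2.27 ± 0.43, limma adjusted p = 0.000406), where IMF-8d held 12.1 to 15.5 FPKM and BF-8d 43.6 to 103. Without BF-4d replicate 3 the first was 1.58 ± 0.36 and the day 4 difference -1.46 ± 0.36, both still called. FOSL1, a subunit of AP-1, rose from 3.19 to 5.13 FPKM in IMF-4d to 15.0 to 16.6 in IMF-8d (1.75 ± 0.31, limma adjusted p = 0.000208) and was lower in IMF on day 4 (-2.08 ± 0.31, limma adjusted p = 2e-05) and day 8 (-1.24 ± 0.31, limma adjusted p = 0.00361), where it was not called without BF-8d replicate 2 or 3 or any 1 of the IMF-8d libraries (-1.28 to -1.04). FOS, another AP-1 subunit, rose from BF-0d to BF-2d (1.20 to 1.37 against 5.56 to 7.95 FPKM, 1.79 ± 0.16, limma adjusted p = 1.59e-07). In IMF cells FOS fell from IMF-4d to IMF-8d, from 5.33 to 6.08 FPKM to 1.84 to 2.11 (-1.21 ± 0.16, limma adjusted p = 9.69e-06). When only the libraries of the groups compared were fitted, the named list genes kept 8 of 8 calls from IMF-4d to IMF-8d, 1 of 4 from BF-0d to BF-2d, 0 of 3 from BF-4d to BF-8d and 0 of 1 from BF-2d to BF-4d. Between depots they kept 2 of 2 on day 0, 0 of 5 on day 2, 6 of 8 on day 4 and 3 of 4 on day 8.

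Profiles were also compared with that of IL11 across all genes. For each of 1103 tested genes with a symbol, a group mean of at least 1 FPKM and a range of at least 2 on the log2 scale, the 8 group means were scaled from 0 (lowest group) to 1 (highest) and the mean absolute difference from IL11 was taken, as a description without a test. The 5 closest genes were PTGES (0.0319), SIK1 (0.0459), MMD (0.047), IL27RA (0.0482) and RP2 (0.0504). LIF had rank 7 (0.0534), IL6 rank 44 (0.0922) and IL6ST rank 268 (0.2). PTGES, the synthase that makes prostaglandin E2, had a mean of 49.9 ± 1.46 FPKM in BF-0d, 283 ± 147 in BF-2d, 451 ± 305 in BF-4d and 401 ± 107 in BF-8d. In IMF cells its means were 47.8 ± 3.85, 55.8 ± 8.79, 53.5 ± 1.85 and 301 ± 28.3 on the 4 days. SIK1, a kinase induced by cAMP, had means of 1.19 ± 0.31 in BF-0d, 50.01 ± 35.4 in BF-2d, 0.77 ± 0.14 in IMF-4d and 52.1 ± 2.94 in IMF-8d. MMD, a membrane protein named for macrophage differentiation, had a mean of 117 ± 23.3 FPKM in BF-4d and 2.11 ± 0.66 in IMF-4d, and RP2, which acts on the small GTPase ARL3, spanned 1.54 ± 0.14 to 10.8 ± 1.95. IL27RA is the one gene found both in a hand-written list and among the 5.

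**Figure D5:**
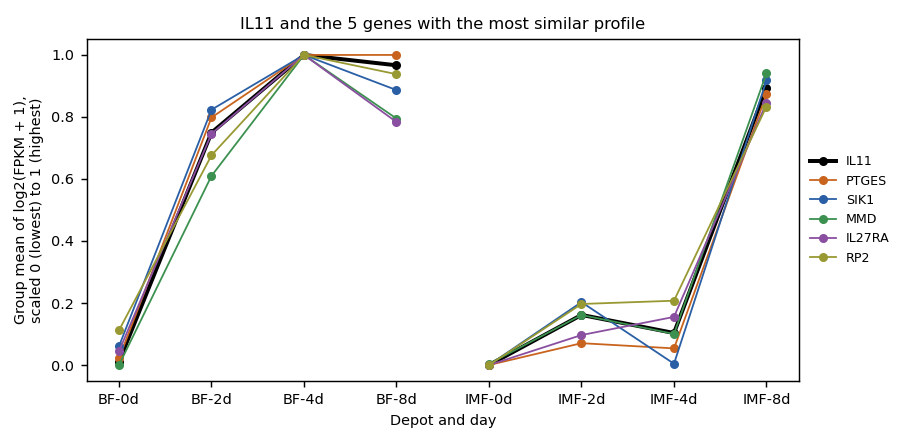
Group means of log2(FPKM + 1), scaled for each gene from 0 in its lowest to 1 in its highest group, for IL11 (black) and the 5 genes with the smallest mean absolute difference from it, over the 8 groups (BF and IMF drawn as separate lines). All 6 lines lie at or below 0.112 on day 0, at or above 0.61 in BF cells from day 2, at or below 0.207 in IMF-2d and IMF-4d, and at or above 0.834 in IMF-8d.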

How the data were processed

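The 24 libraries held polyadenylated RNA, sequenced as paired reads on an Illumina NovaSeq. The deposited values were FPKM per gene, made by the authors with HISAT2 on Sscrofa11.1 and StringTie 1.3.4d. Low values were not whole multiples of 1 read, so read counts could not be recovered from FPKM and counting errors cannot be given. The paper reports the sequencing yield, which was not used here. The authors called genes with DESeq2 1.6.3, a test for counts that could not be applied to FPKM.

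FPKM were analysed as log2(FPKM + 1). Genes with FPKM summed over the 24 libraries above 1 were tested (16135) with limma 3.58.1 in R 4.3.3, with 1 mean per group, all 8 groups in 1 fit, and eBayes with trend and robust. Calls needed a Benjamini-Hochberg adjusted p under 0.01 within the comparison and an absolute log2 difference of at least 1. Differences are later minus earlier day, or IMF minus BF. The fit was tested on simulated data. Gene positions and promoters are from RefSeq on Sscrofa11.1.

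The 10 genes and the 5 lists were chosen with earlier results of these data known. From each list, up to 4 genes with the largest called difference are named, together with the 10 genes, the 5 most like IL11, list genes given by their range and the cell type markers. The other list genes are counted, and some genes of these pathways are not reported here. OSM, CNTF, SOCS2, MCL1, HP, IL1B, TNF, JUN and JUND were not matched to a row of the table by symbol. IL31RA and LBP did not pass the filter. Alternatives were a pseudocount of 0.1, no filter, only the compared groups fitted, median ratio scaling, quantile normalization, the replicate number as a block, and leaving out each library.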

Additional observations from a re-analysis of the deposited data

Results flagged for a closer look

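Among the list genes, the change over an interval in IMF minus that in BF cells (log2 scale) was itself called by limma for 5 genes. Of the 43 list genes 2 were called from day 0 to 2 (4.65%, against 2.45% of all tested genes), 1 from day 2 to 4 (2.33%, against 3.06%) and 4 from day 4 to 8 (9.3%, against 6.39%). From day 0 to day 2 it was 1.49 for GAB1 and -1.965 for IL27RA. From day 2 to day 4 it was 1.27 for FOS. From day 4 to day 8 it was 3.76 for IL1A, 2.95 for IL27RA, -1.585 for GAB1 and -1.12 for SOCS5. The IL1A value and the first GAB1 value lost their call under several alternatives, among them the replicate block and no filter. On leaving out 1 library, the IL1A call was lost for 19 of the 24 libraries (3.62 to 3.90) and that of GAB1 for 16 (1.15 to 1.56). The IL1A value was 2.53 without BF-4d replicate 3 and 4.57 without BF-4d replicate 1.

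Among the 10 genes, in 3 cases every library of one depot moved against every library of the other: LIF from day 2 to day 4 (IMF minus BF -3.64), IL11RA from day 2 to day 4 (1.55) and SOCS3 from day 0 to day 2 (-2.62). In the limma fit of that difference IL11RA and SOCS3 met the call rule and LIF did not. These genes were chosen with their values known, so no p is given.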

How the results depend on the processing

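Read counts per gene are not known, and 3 libraries per group limit the precision. Of 74 called differences of single genes, 0 reversed in any alternative. The call was kept for 73 with a pseudocount of 0.1 and 73 with quantile normalization, for 71 with median ratio scaling and 71 with the replicate block, for 69 without the filter and for 43 with only the compared groups fitted, and in 1663 of 1776 values with a library left out. Beyond fits of the compared groups and left-out libraries, the calls lost were CCND1 on day 2 and the IL1A interaction of days 4 to 8 (no filter, median ratio scaling and replicate block), the GAB1 interaction of days 0 to 2 (pseudocount, no filter and replicate block), the IL6 interaction of days 0 to 2 and LIF on day 8 (no filter), IL11RA from BF-2d to BF-4d (quantile normalization) and SOCS5 from IMF-4d to IMF-8d (median ratio scaling). Fitting only the compared groups uses fewer libraries for the spread. Yet losses were uneven among pairwise comparisons, all with 3 libraries per group. From IMF-4d to IMF-8d the cytokine family genes kept 4 of 4 calls and the named list genes 8 of 8. Between depots on day 2 they kept 0 of 3 and 0 of 5, and from BF-2d to BF-4d 0 of 2 and 0 of 1. From BF-4d to BF-8d the list genes kept 0 of 3. The other pairwise comparisons with calls kept part or all of them. The cause of this unevenness was not tested.

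With only the compared groups fitted, the list genes called were 1, 0 and 0 over the 3 BF intervals, 1 from IMF-0d to IMF-2d, 4 between depots on day 0, 0 on day 2, and 0 for the interactions of days 0 to 2 and 0 for those of days 2 to 4. Of the 10 genes, 3 and 0 were then called over the first 2 BF intervals, 0 between depots on day 2, and 1 and 0 for those interactions. IL11 was not called from BF-0d to BF-2d or on day 2 in that fit. With a pseudocount of 0.1, 1 list gene was called from IMF-0d to IMF-2d and 1 for the interaction of days 0 to 2, and 2 of the 10 genes for that of days 2 to 4. Without the filter, 1 list gene was called for the interaction of days 0 to 2, and 1 of the 10 genes on day 8. Median ratio scaling and quantile normalization each gave 2 of the 10 genes for the interaction of days 2 to 4. The cause of these shifts was not tested.

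Replicate numbers did not pair the libraries: residual correlations of libraries with the same number ran from -0.2465 to 0.1916 (5 of 30 over 0.1), and a library was closest to its own number in 16 of 60 checks. With the replicate number as a block, 1 list gene was called for the interaction of days 0 to 2, and no other count moved by over 1.5 times.

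With each library left out in turn, the list genes called ranged from 6 to 11 (without BF-2d replicate 3) over the first BF interval, 1 to 4 over the second, 0 (without BF-4d replicate 1 or BF-8d replicate 2) to 7 (without BF-4d replicate 3) from BF-4d to BF-8d, 0 to 1 from IMF-0d to IMF-2d, 0 to 0 from IMF-2d to IMF-4d, 8 to 9 from IMF-4d to IMF-8d, 1 to 4 on day 0, 4 to 8 on day 2, 8 to 9 on day 4 and 2 (without BF-8d replicate 2) to 7 on day 8. For the interactions they ranged from 1 to 7 (without BF-2d replicate 3), 1 to 4 (without BF-2d replicate 1) and 3 to 7 (without BF-4d replicate 3). Of the 10 genes, the ranges were 5 to 5, 1 (without BF-2d or BF-4d replicate 3) to 4 (without BF-2d replicate 2) and 0 to 0 over the BF intervals, 0 to 1, 0 to 0 and 3 to 4 over the IMF intervals, 1 to 1, 3 to 4, 5 to 7 and 1 to 3 on days 0, 2, 4 and 8, and 1 to 5, 0 to 3 and 3 to 5 for the interactions. On day 8 LIF lost its call without any of 8 libraries.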
